A study of Mus musculus with 6 samples.

Results

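The nuclear genes of respiratory complexes II, III and IV, of cytochrome c and of complex V, the ATP synthase, were described in activated mouse CD8 T cells labelled as knockout of Ptpmt1 (KO, n = 3) and in wild type cells (WT, n = 3). They were chosen by name: Sdha to Sdhd, Cyc1, Cycs, and every gene whose symbol begins with Uqcr, Atp5, or Cox and a digit. The rule left out 7 names marked as pseudogenes by the ending -ps and 9 cytochrome c oxidase isoform genes, and it used no measured value. It took 52 of the 54532 genes in the deposited table, of which 48 had a mean of at least 0.5 FPKM (read fragments corrected for gene length and sequencing depth) over the 6 samples and were tested, among 12654 tested genes in all. CD8 T cells, the cytotoxic lineage, had been purified from spleen and lymph nodes and activated in culture for 3 days with beads carrying antibodies to CD3 and CD28, in both groups alike. The labels used here give neither the exons removed nor the cells in which Ptpmt1 was deleted, and they give no age or strain. Whether each replicate is a separate animal is not stated, so the p-values reflect spread between these libraries, some of which may be technical.

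The complexes sit in the inner mitochondrial membrane. Complex II oxidises succinate and passes electrons to ubiquinone, complex III passes them from ubiquinol to cytochrome c, and complex IV passes them from cytochrome c to oxygen; complexes III and IV pump protons, and complex V makes ATP as the protons return. Complex II is encoded wholly in the nucleus, as is cytochrome c, while complexes III, IV and V also hold subunits encoded in mitochondrial DNA. Ptpmt1 encodes a mitochondrial phosphatase of the synthesis of cardiolipin, a lipid of the same membrane to which these complexes bind. Activated T cells are known to enlarge their mitochondrial content as they grow and divide.

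Ptpmt1 had 1.0004, 1.58 and 1.504 FPKM in KO replicates 1 to 3 and 3.75, 3.84 and 4.13 FPKM in WT replicates 1 to 3. All KO values lay below all WT values, while the limma adjusted p of 0.0884 missed the threshold of 0.05 and became 0.0307 without KO replicate 3. The KO libraries stood apart from each other: mitochondrially encoded genes took 4.40%, 7.53% and 2.38% of rebuilt reads in KO replicates 1 to 3, against 3.38% to 4.76% in WT. Ribosomal protein genes took 15.1%, 19.1% and 10.96% in KO, against 12.9% to 15.3% in WT. KO replicate 3 also had 0 reads of the female-specific Xist and 1837 of the Y-linked Ddx3y, whereas the other 5 libraries had at least 3513 and 0. CD8 T cell markers were detected for 10 of 10 genes, 0 of which had a log2 fold change above 0, with summed levels of 1166 to 1963 FPKM in KO and 1790 to 2186 FPKM in WT. Marker sums of neutrophils and mast cells were 10.2 to 71.5 FPKM in KO and 5.74 to 17.1 FPKM in WT, and those of gamma-delta T cells 9.61 to 56.7 FPKM in KO and 9.13 to 22.5 FPKM in WT, both highest in KO replicate 3; Ly6g, which defines neutrophils, had 0 reads in all libraries. The sums for natural killer cells were 24.6 to 55.7 FPKM in KO and 27.9 to 35.3 FPKM in WT, and those for B cells 13.4 to 15.1 FPKM in KO and 18.7 to 25.0 FPKM in WT. Macrophage markers summed to 3.18 to 7.58 FPKM in KO and 5.58 to 6.76 FPKM in WT. Erythroid markers summed to 6.98 to 12.2 FPKM in KO and 3.64 to 13.8 FPKM in WT, and CD4 T cell markers to 2.05 to 5.995 FPKM in KO and 1.67 to 4.09 FPKM in WT. Of the tested markers, 3 of 4 lay above 0 in log2 fold change for neutrophils and mast cells, 3 of 3 for gamma-delta T cells, 3 of 3 for erythroid cells, 1 of 3 for natural killer cells, 1 of 3 for macrophages, 1 of 2 for CD4 T cells and 0 of 2 for B cells. The part of these differences in the results was not tested, and in bulk samples fewer cells of a type and less RNA per cell cannot be told apart.

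Most of the nuclear genes of complexes II to V had higher mean levels in KO than in WT, and none passed the test. Of the 48 tested genes, 45 had a log2 fold change above 0, against 52.4% of all tested genes, and their median was 0.41, against 0.03 for all. With libraries set to equal rebuilt read totals, a scaling chosen after seeing the data, 40 genes lay above 0 (42.0% of all genes) with a median of 0.26, and with equal FPKM totals 34 did so (34.3% of all genes) with a median of 0.14, while the median of all genes became -0.10 and -0.20. By limma with Benjamini-Hochberg adjustment over all genes, 0 of the 48 were called, against 0.0395% of all genes, and the smallest adjusted p was 0.113. At an unadjusted p under 0.05, 6 genes were higher in KO (11.5% of all genes) and 0 were lower (10.2% of all genes), so the share higher was near the background. All KO values lay above all WT values for 8 genes, against 14.5% of all tested genes, and below them for 0, against 13.3%. The 8 genes were Cycs, Cyc1, Uqcrq, Atp5g1, Atp5b, Atp5d, Cox11 and Cox6b2, a share close to the background. They encode cytochrome c, a pair of complex III subunits, a subunit of the ATP synthase membrane ring, a pair of its catalytic head, a copper assembly factor and an oxidase subunit isoform.

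**Figure D1:**
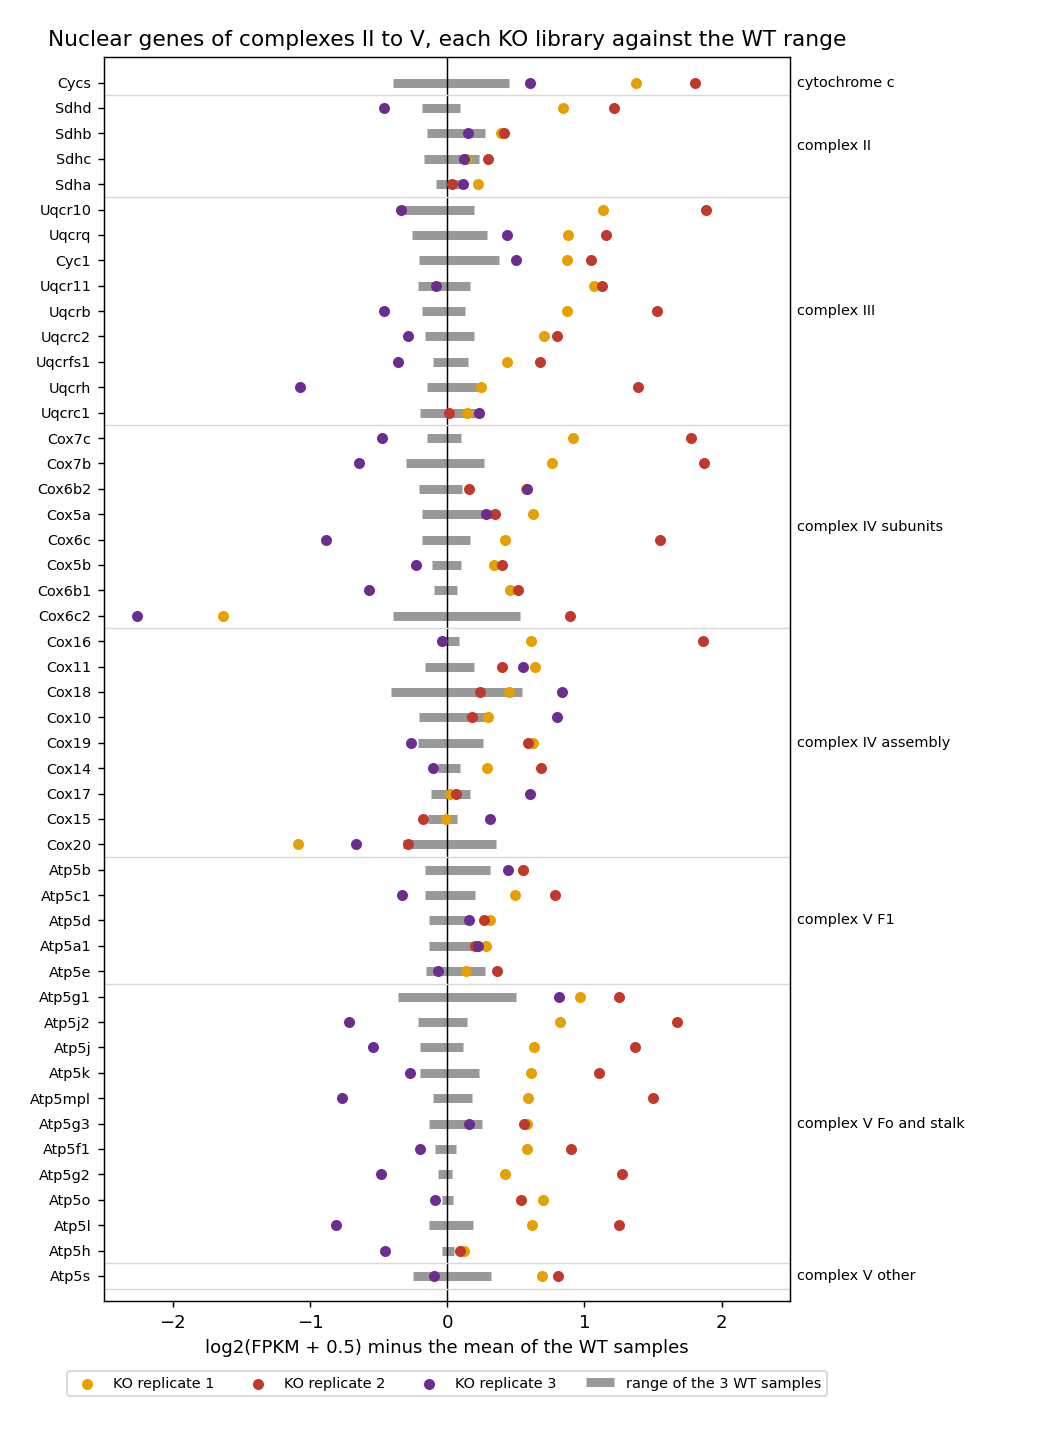
Each of the 48 tested genes in each KO library, as log2(FPKM + 0.5) minus the mean of the WT samples (horizontal axis), by complex and then by gene down the page; points are KO replicates 1 to 3 and grey bars the range of the 3 WT samples. Points of KO replicates 1 and 2 lie right of the WT range in 39 and 40 genes and those of KO replicate 3 in 14.

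Cytochrome c showed the largest difference of the set. Cycs, the somatic cytochrome c that carries electrons from complex III to complex IV and triggers the apoptosome when released (mm10 chromosome 6, 50562563 to 50566538, minus strand), had 90.4, 122 and 52.7 FPKM in KO replicates 1 to 3 and 33.1, 26.1 and 47.3 FPKM in WT replicates 1 to 3. All KO libraries lay above all WT libraries, with KO replicate 3 and WT replicate 3 the closest. Its mean was 88.3 ± 34.5 FPKM in KO and 35.5 ± 10.8 FPKM in WT (SD, n = 3 each), 2.48-fold higher in KO. The log2 fold change of 1.26 (SE 0.353) had a limma adjusted p of 0.129, and with each sample left out in turn it ranged from 0.99 to 1.59. Ordered by FPKM among the 48 genes, Cycs stood at places 27, 25 and 26 in KO replicates 1 to 3 and 33, 34 and 32 in WT replicates 1 to 3. Against the 48-gene median deviation in the same library, Cycs was higher by 0.80, 1.07 and 0.71 (log2) in KO replicates 1 to 3. In WT replicates 1 to 3 the same difference was -0.05, -0.26 and 0.31, so the groups did not overlap.

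Complex III, which takes electrons from ubiquinol, had a median log2 fold change of 0.65 over 9 tested genes, all above 0 as deposited. That was the highest median among the complexes; without KO replicate 2 it was 0.21, below the 0.23 of F1 and the 0.29 of complex IV assembly. Cyc1, the haem-bearing cytochrome c1 that hands electrons to cytochrome c, had 96.5, 109 and 74.6 FPKM in KO and 45.5, 46.5 and 68.2 FPKM in WT. Uqcrq, a small subunit of the complex, had 119.8, 146 and 88.1 FPKM in KO and 63.6, 54.4 and 79.5 FPKM in WT. For both genes the groups did not overlap, and WT replicate 3 was the highest WT library, close to KO replicate 3. Cyc1 (chromosome 15, 76343523 to 76346260, plus strand) averaged 93.3 ± 17.4 FPKM in KO and 53.4 ± 12.8 FPKM in WT (SD, n = 3 each; log2 fold change 0.81, limma adjusted p = 0.134). Uqcrq (chromosome 11, 53427922 to 53430831, minus strand) averaged 118 ± 28.8 FPKM in KO and 65.8 ± 12.7 FPKM in WT (SD, n = 3 each; log2 fold change 0.82, limma adjusted p = 0.141).

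The other subunits of complex III spread differently over the KO libraries. Uqcr10, the subunit of highest FPKM, had 513, 866 and 185 FPKM in KO and 258, 184 and 268 FPKM in WT. KO replicates 1 and 2 lay far above every WT library and KO replicate 3 near the lowest, so its SD in KO was 340.2 FPKM around a mean of 521. Its mean in WT was 237 ± 45.9 FPKM (SD, n = 3), and its limma adjusted p was 0.371. The hinge protein gene Uqcrh had 244, 539 and 97.4 FPKM in KO and 239, 196 and 186 FPKM in WT, a log2 fold change of 0.19. That value was -0.41 without KO replicate 2, 0.82 without KO replicate 3, and below 0 at equal FPKM totals. Uqcrb and Uqcr11, further small subunits, showed the same order of KO libraries, with 71.8 and 78.1 FPKM in KO replicate 3. Uqcrfs1, the Rieske iron-sulfur protein, had 214, 254 and 123 FPKM in KO and 176, 153 and 147 FPKM in WT, again with KO replicate 3 below all WT libraries. Every KO library lay within the WT range for the core protein gene Uqcrc1. It had 44.9, 41.0 and 47.9 FPKM in KO and 35.4, 39.0 and 48.7 FPKM in WT. Its partner Uqcrc2 had 166, 178 and 83.3 FPKM in KO and 117, 99.3 and 90.997 FPKM in WT.

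**Figure D2:**
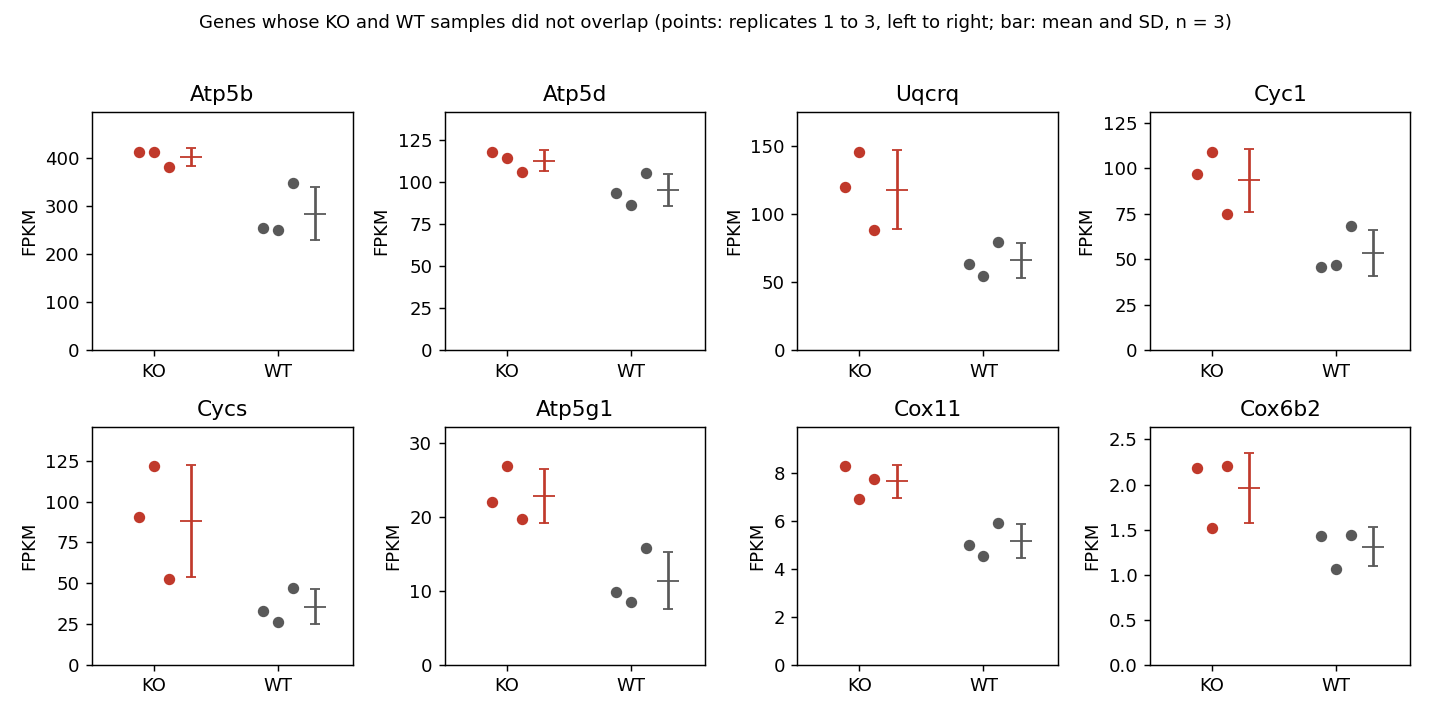
FPKM (vertical axes, starting at 0) of the 8 genes whose groups did not overlap, with KO left and WT right in each panel; points are replicates 1 to 3 from left to right, and bars the mean and SD (n = 3). The lowest KO point lies above the highest WT point in each panel, at 105.6 and 105.4 FPKM for Atp5d and at 6.91 and 5.92 FPKM for Cox11.

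Complex II, the succinate dehydrogenase that belongs to both the citric acid cycle and the respiratory chain, had log2 fold changes from 0.13 for Sdha to 0.53 for Sdhd. Its median log2 fold change over 4 genes was 0.25 as deposited and -0.017 with equal FPKM totals. Sdha, the flavoprotein that oxidises succinate, had 90.1, 78.8 and 83.5 FPKM in KO and 76.3, 72.8 and 81.9 FPKM in WT. Sdhb, the iron-sulfur subunit, had 76.9, 78.1 and 65.2 FPKM in KO and 52.9, 53.6 and 70.9 FPKM in WT. In both genes the groups overlapped through WT replicate 3. The adjusted p in limma was 0.672 for Sdha and 0.36 for Sdhb. The membrane anchors differed from each other in spread: Sdhc had 27.0, 30.3 and 26.9 FPKM in KO and 21.8, 23.5 and 29.0 FPKM in WT, whereas Sdhd had 309, 399 and 125 FPKM in KO and 183, 151 and 183 FPKM in WT. KO replicate 3 had the lowest Sdhd of all 6 libraries and KO replicate 2 the highest. Sdhd averaged 278 ± 139.7 FPKM in KO and 172 ± 18.2 FPKM in WT (SD, n = 3 each; limma adjusted p = 0.494), although the anchors are partners in 1 complex.

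Among the nuclear subunits of complex IV, cytochrome c oxidase, the median log2 fold change over 8 tested genes was 0.39. Cox7c, a small subunit of the complex and the class's member of highest FPKM, had 384, 694 and 146 FPKM in KO and 217, 183 and 209 FPKM in WT. Cox7b, another small subunit, had 288, 622 and 108 FPKM in KO and 173, 138 and 204 FPKM in WT. For both, KO replicate 3 was the lowest of all libraries and KO replicate 2 the highest. Their limma adjusted p was 0.445 and 0.539. Cox6c followed the same order, at 94.0, 206 and 37.7 FPKM in KO and 71.0, 61.6 and 78.8 FPKM in WT.

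The subunits Cox5a and Cox5b differed less between KO libraries. Cox5a had 53.9, 44.3 and 42.3 FPKM in KO and 30.6, 31.4 and 43.7 FPKM in WT, where only WT replicate 3 reached into the KO values (log2 fold change 0.42, SE 0.201, limma adjusted p = 0.275). Cox5b had 148, 154 and 99.8 FPKM in KO and 126, 118 and 108 FPKM in WT, a log2 fold change of 0.17 that was -0.10 with equal FPKM totals. Cox6b1, the common form of a subunit that faces the intermembrane space, had 308, 320.4 and 151 FPKM in KO and 236, 210.2 and 227 FPKM in WT; its log2 fold change of 0.13 turned to -0.14 with equal FPKM totals and to -0.017 with equal read totals. Its testis-typical form Cox6b2 (chromosome 7, 4751792 to 4753094, minus strand) had 2.18, 1.51 and 2.20 FPKM in KO and 1.43, 1.06 and 1.44 FPKM in WT. The groups of Cox6b2 did not overlap, by a small margin, and its limma adjusted p was 0.297. These values rest on 38, 22 and 44 reads in KO and 26, 18 and 28 reads in WT. The groups overlapped once read totals were made equal. As a share of the summed FPKM of both forms, Cox6b2 made up 0.703%, 0.470% and 1.44% in KO and 0.603%, 0.501% and 0.629% in WT, so the groups overlapped. Cox6c2, annotated as a processed pseudogene, had 1, 12 and 0 reads in KO and 5, 6 and 12 reads in WT, too few to give a direction, and reads may be shared with Cox6c. Its fitted log2 fold change of -0.9995 was the lowest of the 48.

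The assembly factors named after complex IV, which build the enzyme and fit its haem and copper, had a median log2 fold change of 0.32 over 9 tested genes. Cox11, which delivers copper to a catalytic subunit (chromosome 11, 90638173 to 90644931, plus strand), had 8.26, 6.91 and 7.75 FPKM in KO and 4.98, 4.53 and 5.92 FPKM in WT. Every KO library was above every WT library and the KO values were close together, at a mean of 7.64 ± 0.682 FPKM in KO and 5.14 ± 0.711 FPKM in WT (SD, n = 3 each). Its log2 fold change, 0.53 (SE 0.165), had a limma adjusted p of 0.149, and the groups overlapped once read totals were made equal. Cox20, a chaperone of a mitochondrially encoded subunit, had 0.576, 1.38 and 0.941 FPKM in KO and 2.42, 1.33 and 1.74 FPKM in WT. It was the lowest-ranked gene by fold among those that are not pseudogenes, at a log2 fold change of -0.68 (SE 0.300, limma adjusted p = 0.243), on 8, 16 and 15 reads in KO and 35, 18 and 27 reads in WT. As deposited, KO replicate 2 lay just above WT replicate 2, so the groups overlapped. They did not overlap, lower in KO, with equal read totals or equal FPKM totals, or without KO replicate 2 or WT replicate 2. With equal read totals the log2 fold change was -0.78 (limma unadjusted p = 0.0327), and Cox20 was called in none of these settings.

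Cox14, which acts in the synthesis and early assembly of another mitochondrially encoded subunit, was the factor of highest FPKM, at 68.0, 89.7 and 51.7 in KO and 53.2, 54.4 and 59.5 in WT. The factors of haem synthesis had their highest level in KO replicate 3. Cox10, which makes haem O, had 8.47, 7.78 and 12.2 FPKM in KO and 6.23, 5.85 and 8.64 FPKM in WT, and Cox15, which makes haem A, had 8.85, 7.85 and 11.2 FPKM in KO and 8.05, 9.42 and 9.35 FPKM in WT. Cox18, which inserts a subunit into the membrane, had 4.15, 3.51 and 5.58 FPKM in KO and 2.07, 2.60 and 4.48 FPKM in WT. The copper chaperone Cox17 had 0.539, 0.568 and 1.06 FPKM in KO and 0.645, 0.440 and 0.493 FPKM in WT, near the filter. For these 4 genes the groups overlapped and KO replicate 3 was the highest library, in contrast to the small subunits above. Cox16, which helps to join subunits of the enzyme, had 7.69, 19.0 and 4.71 FPKM in KO and 5.18, 4.62 and 4.78 FPKM in WT, with KO replicate 2 far above the others. The last of these factors, Cox19, which acts in copper delivery, had 7.75, 7.56 and 3.95 FPKM in KO and 5.90, 4.12 and 4.68 FPKM in WT.

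The catalytic head of complex V, F1, includes Atp5b and Atp5a1, whose KO libraries were close together, and Atp5c1, whose KO libraries were not. Over the 5 F1 genes the median log2 fold change was 0.25 as deposited and -0.026 with equal FPKM totals. Atp5b, the catalytic beta subunit (chromosome 10, 128083273 to 128090391, plus strand), had 412, 412 and 380.5 FPKM in KO and 254, 250.02 and 347 FPKM in WT. The groups did not overlap, with WT replicate 3 nearest to KO. Its mean was 401 ± 18.04 FPKM in KO and 284 ± 55.1 FPKM in WT (SD, n = 3 each), a log2 fold change of 0.52 (SE 0.213, limma adjusted p = 0.22). Atp5a1, the alpha subunit, had 346, 326 and 332 FPKM in KO and 259, 267 and 329.7 FPKM in WT, where WT replicate 3 overlapped KO. The delta subunit gene Atp5d (chromosome 10, 80138632 to 80145818, plus strand) had 118, 114 and 105.6 FPKM in KO and 93.5, 86.2 and 105.4 FPKM in WT, so that the groups only just failed to overlap. Its log2 fold change of 0.25 had a limma adjusted p of 0.421 and turned to -0.026 with equal FPKM totals. The gamma subunit gene Atp5c1 spread widely, at 261, 319.5 and 148 FPKM in KO and 214, 180.2 and 166 FPKM in WT. Atp5e, the epsilon subunit gene, had 79.6, 92.9 and 68.9 FPKM in KO and 64.7, 66.5 and 87.4 FPKM in WT.

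The membrane sector Fo and the stalk that joins it to F1 had a median log2 fold change of 0.43 over 11 tested genes, and 0.05 without KO replicate 2. KO replicates 1 and 2 lay above the highest WT library in 11 of 11 genes and KO replicate 3 below the lowest in 9 of them. The ring of subunit c, through which protons pass, is encoded by Atp5g1, Atp5g2 and Atp5g3, which give the same mature protein after the import sequence is removed. Atp5g1 (chromosome 11, 96068852 to 96075670, minus strand) had 21.9, 26.8 and 19.7 FPKM in KO and 9.86, 8.43 and 15.7 FPKM in WT. Every KO library was above every WT library, at means of 22.8 ± 3.63 FPKM in KO and 11.3 ± 3.86 FPKM in WT (SD, n = 3 each), 2.01-fold higher. Its log2 fold change of 1.01 (SE 0.255) had the smallest limma adjusted p of the 48 genes, 0.113. Atp5g2, the paralog of highest FPKM, had 248, 447 and 132 FPKM in KO and 189, 176 and 189.8 FPKM in WT, for a log2 fold change of 0.40, or -0.030 once KO replicate 2 was left out. Atp5g3 had 169, 167 and 127 FPKM in KO and 104, 103 and 135 FPKM in WT, with WT replicate 3 above KO replicate 3 (log2 fold change 0.43, SE 0.208, limma adjusted p = 0.275). Reads of near-identical copies of these genes may be shared between rows.

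Since the paralogs feed the same ring, their shares were compared within each library, where library scaling cancels. Atp5g1 made up 4.99%, 4.18% and 7.07% of the summed FPKM of the 3 genes in KO and 3.25%, 2.93% and 4.61% in WT. KO replicate 2 lay below WT replicate 3, so the groups overlapped, at 5.41% ± 1.49 in KO and 3.60% ± 0.895 in WT (SD, n = 3 each). An exact 2-sided permutation test gave p = 0.2 (0.833 after Benjamini-Hochberg adjustment over 5 shares), where 3 against 3 samples cannot go below 0.1. Atp5g2 held 56.5%, 69.8% and 47.5% in KO and 62.4%, 61.2% and 55.7% in WT, and was the main source of subunit c transcripts in each library, with KO replicates 2 and 3 on either side of WT.

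The remaining Fo and stalk genes shared 1 pattern. Atp5j2 and Atp5k, which encode subunits f and e of the membrane sector, had 116, 209 and 39.4 FPKM and 99.5, 141 and 53.9 FPKM in KO, against 68.3, 56.2 and 72.0 FPKM and 63.4, 56.8 and 76.7 FPKM in WT. Atp5l, which encodes subunit g, had 38.8, 60.5 and 14.2 FPKM in KO and 24.2, 22.9 and 28.8 FPKM in WT, and Atp5mpl, a small peptide of the same sector, had 124, 234 and 48.3 FPKM in KO and 93.7, 76.8 and 78.1 FPKM in WT. In each of these genes KO replicate 3 was the lowest library and KO replicate 2 the highest. Of the stalk, Atp5f1 (subunit b) had 144, 180.2 and 83.8 FPKM in KO and 100.4, 90.4 and 97.5 FPKM in WT. Atp5j (coupling factor F6) had 92.2, 154 and 40.6 FPKM in KO and 62.8, 51.5 and 64.4 FPKM in WT. Atp5o, the subunit that anchors the stalk to F1 and confers oligomycin sensitivity, had 72.9, 65.0 and 42.1 FPKM in KO and 44.6, 46.0 and 43.5 FPKM in WT. The stalk genes again had KO replicates 1 and 2 above WT and KO replicate 3 below. Atp5h (subunit d) was the exception in size, with a log2 fold change of -0.08 (limma adjusted p = 0.855) on 173, 169 and 116 FPKM in KO and 154, 164 and 157 FPKM in WT. Atp5s, coupling factor B, which stood in no sector, had 4.11, 4.48 and 2.17 FPKM in KO and 2.22, 3.07 and 1.90 FPKM in WT, overlapping, with a log2 fold change of 0.47 (SE 0.292, limma adjusted p = 0.385).

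Promoters of 4 genes are shown as examples that differ in fold and spread. They are Cycs and Atp5g1, whose groups did not overlap, Sdhd, whose KO libraries spread widely, and Atp5h, with a log2 fold change near 0. Cox6c2 and Cox20, the genes of lowest fold, are not among them. Each printed promoter runs 5' to 3' on the gene's strand, from 250 bases before the annotated start to 50 bases after it, per RefSeq on GRCm38.p6. Capitals mark matches, on either strand, to any of 5 short motifs: GCGCA, any base and GCGC of NRF1, CCGGAAG of ETS factors such as GABPA, AAGATGGCG of YY1, the E-box CACGTG of MYC and related factors, and TGATGNAA of ATF4. The Sdhd window is chr9:50603800-50604099, that of Atp5h chr11:115419870-115420169, that of Atp5g1 chr11:96075582-96075881 and that of Cycs chr6:50566520-50566819, all on the minus strand.
Cycs: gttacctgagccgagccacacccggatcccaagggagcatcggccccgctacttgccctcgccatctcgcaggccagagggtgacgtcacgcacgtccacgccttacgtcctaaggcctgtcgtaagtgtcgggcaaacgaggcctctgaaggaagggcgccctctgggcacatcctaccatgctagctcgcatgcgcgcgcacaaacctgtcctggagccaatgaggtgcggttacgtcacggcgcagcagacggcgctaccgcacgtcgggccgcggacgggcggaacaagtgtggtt
Atp5g1: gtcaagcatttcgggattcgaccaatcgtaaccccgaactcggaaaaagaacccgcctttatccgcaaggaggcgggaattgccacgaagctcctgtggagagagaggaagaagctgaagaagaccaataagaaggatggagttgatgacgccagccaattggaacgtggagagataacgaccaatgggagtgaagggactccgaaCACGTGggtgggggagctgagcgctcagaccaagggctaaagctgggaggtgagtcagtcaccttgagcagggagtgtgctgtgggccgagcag
Sdhd: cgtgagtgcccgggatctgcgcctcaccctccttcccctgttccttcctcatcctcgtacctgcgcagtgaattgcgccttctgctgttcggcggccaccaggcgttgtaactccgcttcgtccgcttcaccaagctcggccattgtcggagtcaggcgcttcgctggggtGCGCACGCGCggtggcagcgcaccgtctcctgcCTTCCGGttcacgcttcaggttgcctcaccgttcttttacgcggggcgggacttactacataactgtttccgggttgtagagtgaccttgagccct
Atp5h: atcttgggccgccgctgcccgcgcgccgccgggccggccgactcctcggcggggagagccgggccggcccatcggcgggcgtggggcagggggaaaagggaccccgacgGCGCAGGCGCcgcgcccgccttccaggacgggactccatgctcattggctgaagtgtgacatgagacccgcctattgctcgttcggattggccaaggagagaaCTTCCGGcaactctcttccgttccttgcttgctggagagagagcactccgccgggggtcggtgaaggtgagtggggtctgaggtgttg
Sdhd held an NRF1 match at -79 and an ETS match at -46 from the start, and Atp5h held them at -141 and -38. Atp5g1 held an E-box at -44 and Cycs no exact match in this window. The Cycs window does hold tcgcatgcgc, which differs from the NRF1 string only in its first base. In both Sdhd and Atp5h, KO replicates 1 and 2 lay above every WT library and KO replicate 3 below, with a wider spread in Sdhd. The part of these strings in the levels was not tested.

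RefSeq promoters matched 36 of the 52 genes by symbol or identifier. The NRF1 string occurred in 9 of the 36, a share of 25.0%, against 5.19% of all 27025 genes in the promoter table. The ETS string occurred in 15 (41.7% against 9.93%). This background takes in genes that were not tested here, unlike the shares of all tested genes given elsewhere. The YY1 string occurred in 3 (8.33% against 1.64%), the E-box in 3 (8.33% against 8.09%), namely Atp5g1, Atp5g3 and Atp5l, and the ATF4 string in 0 (against 4.51%). Genes with the NRF1 string had a median log2 fold change of 0.38 over 9 tested genes, against 0.42 over the 26 tested genes without it. For the ETS string the medians were 0.32 over 15 genes with it and 0.42 over 20 genes without it. A match is a run of letters and no measured binding, and the strings do not overlap each other in the printed windows. Only exact matches were counted, so Cycs, with its near match, stands among the genes without the NRF1 string.

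The 3 KO libraries took different positions relative to WT. KO replicate 1 lay above the highest WT library in 39 of the 48 genes, against 35.9% of all genes, and below the lowest in 2 (31.5% of all genes). KO replicate 2 lay above in 40 (38.8% of all genes) and below in 1 (35.3% of all genes). KO replicate 3 lay above in 14 (35.2% of all genes), within the WT range in 10 and below in 24 (34.1% of all genes). Its position differed by class: it was below WT in 9 of 11 Fo and stalk genes and in 6 of 8 complex IV subunit genes, and above WT in 3 of 5 F1 genes and in 5 of 9 complex IV assembly genes. The levels were ordered KO replicate 2, then 1, then 3 in 31 of 48 genes, a share of 64.6%, against 31.5% of all tested genes. In 20 genes KO replicate 2 was the highest and KO replicate 3 the lowest of all 6 libraries, 41.7% against 11.1% of all genes. Within WT, replicate 3 was the highest in 31 genes, 64.6% against 40.0% of all genes. The median range over the KO libraries was 0.85 (log2) for these genes and 0.63 for all genes, and over the WT libraries 0.36 and 0.40.

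**Figure D3:**
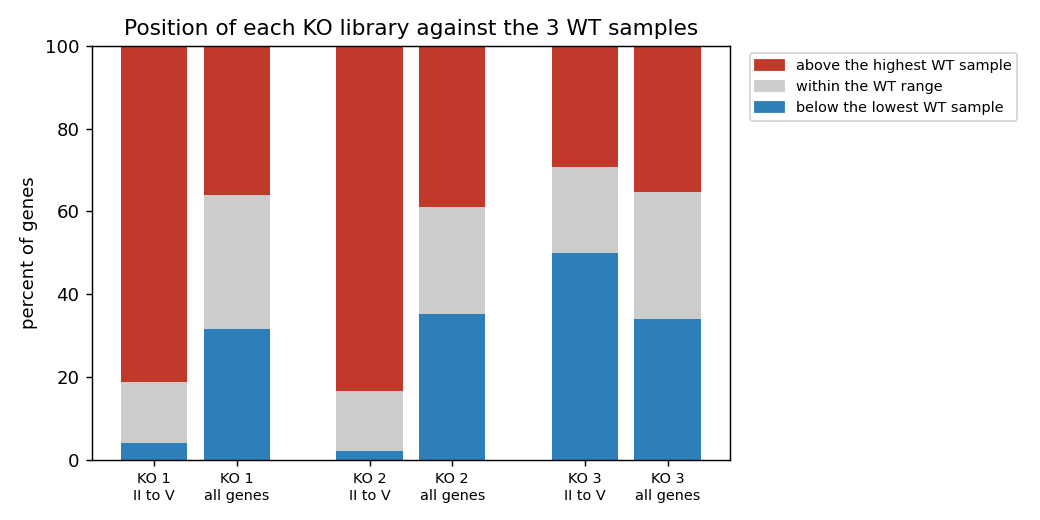
Percent of genes (vertical axis) whose level in KO replicates 1, 2 and 3 lay above the highest WT sample, within the WT range or below the lowest WT sample, for the 48 genes of complexes II to V and for all tested genes. KO replicates 1 and 2 lay above WT in 39 and 40 of the 48 genes, and KO replicate 3 in 14.

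Other transcripts moved with this order. The median deviation from the WT mean, on the log2 scale, was 0.58, 0.73 and -0.10 in KO replicates 1 to 3 for the 48 genes. It was 0.18, 1.57 and -1.08 for the 6 mitochondrially encoded subunits of complexes III, IV and V, with a median log2 fold change of 0.19, or -0.48 once KO replicate 2 was left out and 0.88 once KO replicate 3 was. For 98 tested ribosomal protein genes it was 0.27, 0.79 and -0.44, and for 45 tested histone genes, many of whose transcripts lack a poly(A) tail, 0.70, 0.83 and -0.39. In WT replicates 1 to 3 the 48 genes deviated by -0.01, -0.13 and 0.14. KO replicate 2 was thus the highest and KO replicate 3 the lowest KO library in all 4 lists, while the excess of KO replicate 1 was larger in the nuclear genes of complexes II to V than in the mitochondrially encoded ones. Summed over all 52 genes, the share of rebuilt reads, which does not depend on the deposited scaling, was 1.14%, 1.22% and 0.880% in KO and 0.823%, 0.785% and 0.983% in WT. By read share KO replicate 3 was therefore below WT replicate 3 and above WT replicates 1 and 2. In summed FPKM of the 48 tested genes it was below every WT library. That sum was 3642 in KO replicate 3 and 4237, 3797 and 4474 in WT replicates 1 to 3. The part of the ribosomal protein and histone differences in these results was not tested.

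**Figure D4:**
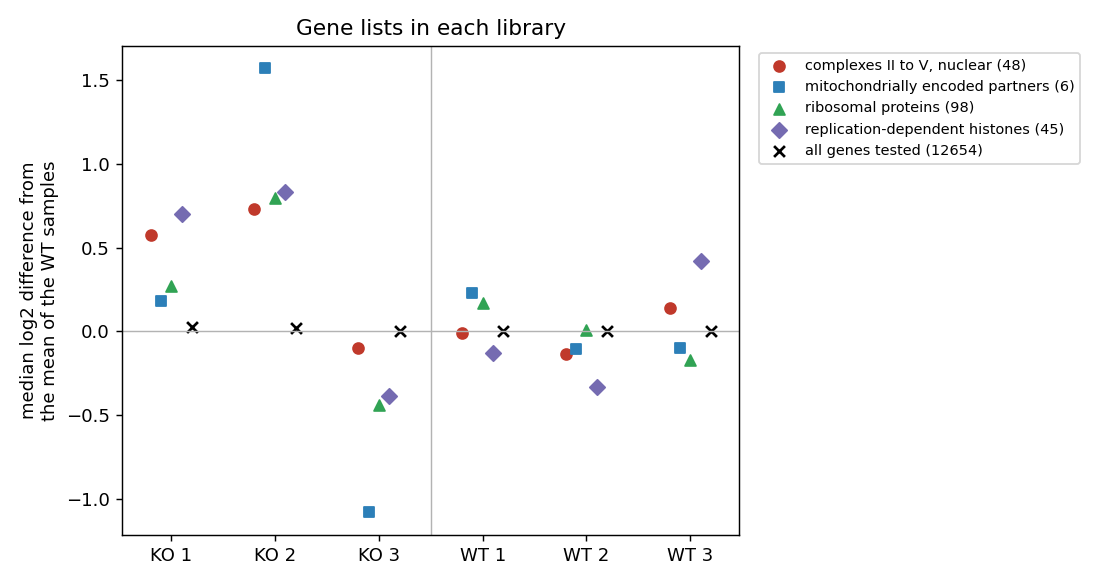
Median log2 difference from the mean of the WT samples (vertical axis) in each library for 5 sets: the nuclear genes of complexes II to V, their mitochondrially encoded partners, ribosomal protein genes, histone genes and all tested genes. KO replicate 3 is the lowest KO library in the first 4 sets, at -0.10, -1.08, -0.44 and -0.39, while all genes stay near 0.

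Gene length moved with the gap between KO libraries. Across the 48 genes, deposited length and the log2 difference of KO replicate 2 minus KO replicate 3 had a Spearman rho of -0.36 and a Pearson r with log length of -0.40, as a description over genes that share the same pair of libraries. Among all tested genes under 1000 bases that difference had a median of 0.57, against 0.19 from 1000 to under 3000 bases and -0.18 from 3000 bases. The 8, 23 and 17 genes of complexes II to V in these ranges had medians of 1.29, 0.63 and 0.44, above those of all genes of like length. With the log2 fold change of KO over WT, length had a Spearman rho of -0.04 and a Pearson r with log length of 0.27 over the 48 genes. Their median fold changes (log2) were 0.38, 0.42 and 0.36 in the 3 ranges, against 0.09, 0.13 and -0.02 for all genes. The part of length in the result was not tested.

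**Figure D5:**
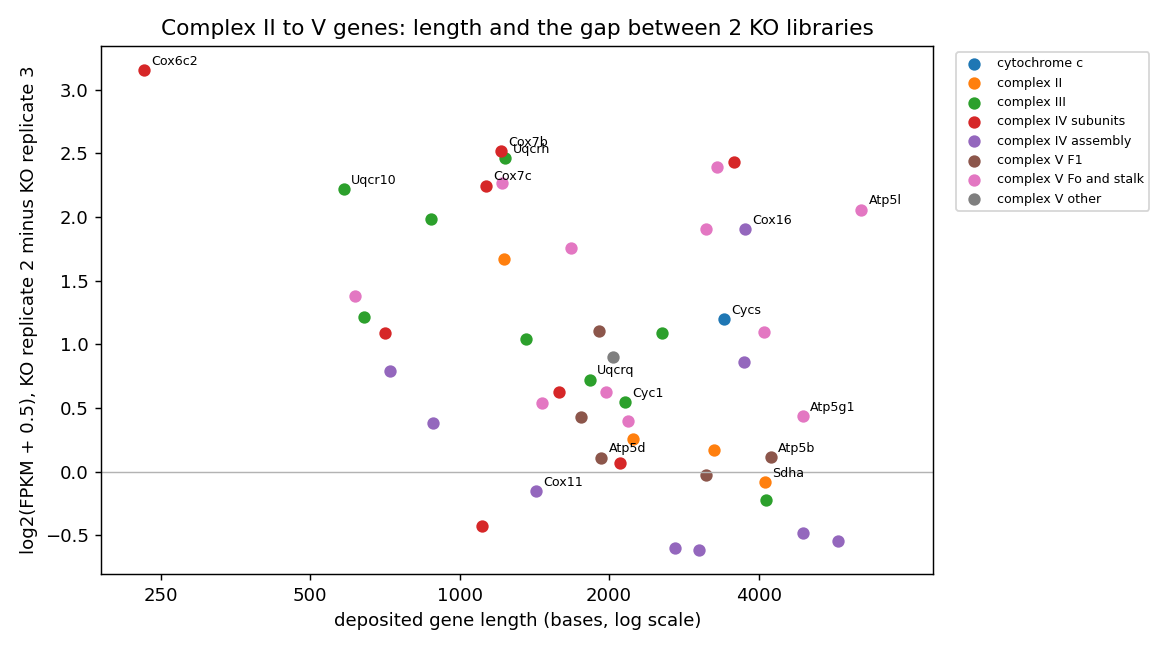
Deposited gene length in bases (horizontal log axis) against the log2 difference of KO replicate 2 minus KO replicate 3 (vertical axis), a point per tested gene, coloured by complex. The gap tends to be wider in shorter genes, with a Spearman rho of -0.36, though genes over 3000 bases such as Atp5l and Cox16 also have a wide gap.

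The count of called genes rested on KO replicate 3. Without it, limma called 16 of the 48 genes, all higher in KO, against 8.58% of all tested genes called higher, with a smallest adjusted p of 0.0307. They were Cycs; Cyc1, Uqcrq, Uqcrb, Uqcr10, Uqcr11 and Uqcrc2 of complex III; Sdhd of complex II; Cox7c of complex IV; and Atp5g1, Atp5f1, Atp5j, Atp5j2, Atp5k, Atp5l and Atp5o of Fo and the stalk. The groups then did not overlap for 37 genes, higher in KO, against 28.2% of all genes, and the median log2 fold change was 0.61. Without KO replicate 2 the median was 0.19, 39 genes lay above 0, and the groups did not overlap for 10 genes higher in KO, against 19.4% of all genes. With equal read totals the groups did not overlap for 5 genes higher in KO, Cycs, Cyc1, Uqcrq, Atp5g1 and Cox16 (9.04% of all genes). With equal FPKM totals 4 genes did so, the same set without Cyc1 (5.7% of all genes). Separate groups lower in KO were found for Cox20 at equal read totals, and for Cox20 and Atp5h at equal FPKM totals. The share of all genes lower was not computed at these scalings. The sign of the log2 fold change also turned for several genes. It fell below 0 with equal read totals for Sdha, Uqcrc1, Cox6b1, Cox15 and Atp5e, and with equal FPKM totals for these and for Sdhc, Uqcrh, Uqcrfs1, Cox5b, Atp5a1 and Atp5d. Without KO replicate 2 it fell below 0 for Uqcrh, Cox6b1, Cox6c, Atp5g2, Atp5l and Atp5mpl, and without KO replicate 1 for Cox6b1. Cox15 was below 0 without KO replicate 3 or without WT replicate 1, and Atp5h was above 0 without KO replicate 3. Cycs, Uqcrq and Atp5g1 kept separate groups as deposited and under both scalings.

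Assembly factors and related genes outside the naming rule were examined beside these genes, among them the oxidase subunit Ndufa4 and the ATP synthase inhibitor Atpif1. Of 33 in the table, 31 were tested, 28 had a log2 fold change above 0 (52.4% of all genes), and 0 were called (0.0395% of all genes). With an unadjusted p below 0.05, 6 of them were higher in KO (11.5% of all genes) and 0 lower (10.2% of all genes). Their median was 0.24 as deposited and 0.09 with equal read totals, where that of all genes was -0.10. The groups did not overlap for 6 genes higher in KO (14.5% of all genes) and for 2 lower (13.3% of all genes). Coa7, a complex IV assembly factor, had 7.29, 10.3 and 4.69 FPKM in KO and 2.68, 3.42 and 3.16 FPKM in WT, with no overlap (limma adjusted p = 0.114). The copper carrier Sco1 had 8.06, 6.72 and 8.60 FPKM in KO and 4.67, 4.15 and 5.44 FPKM in WT, also with no overlap, at a log2 fold change of 0.66 (limma adjusted p = 0.118). Lrpprc, which stabilises mitochondrial mRNAs, had 15.7, 12.7 and 15.8 FPKM in KO and 8.17, 8.31 and 11.6 FPKM in WT (limma adjusted p = 0.143). Sco1 and Lrpprc were as high in KO replicate 3 as in KO replicate 1, like Cox11 and unlike the small subunits. The 2 lower genes were Uqcc3, a complex III assembly factor, at 35.2, 39.4 and 29.3 FPKM in KO and 46.6, 49.6 and 39.7 FPKM in WT (log2 fold change -0.39, limma adjusted p = 0.262), and Higd2a, at 56.6, 56.7 and 49.2 FPKM in KO and 56.7, 58.6 and 58.9 FPKM in WT. Pet117 and Sco2 had 0 reads in every library.

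Of 12 regulators of nuclear respiratory genes, 11 were tested, with a median log2 fold change of 0.12 as deposited and -0.03 with equal read totals. Of these, 10 lay above 0 (52.4% of all genes) and 0 were called (0.0395% of all genes). Pprc1, a coactivator of growth-linked respiratory gene expression, had 4.83, 4.22 and 9.78 FPKM in KO and 2.25, 2.18 and 4.43 FPKM in WT. It was highest in KO replicate 3, and WT replicate 3 lay above KO replicate 2, so the groups overlapped (log2 fold change 0.94, limma adjusted p = 0.205). Nrf1 itself had 6.48, 5.94 and 5.998 FPKM in KO and 5.27, 5.29 and 6.58 FPKM in WT. Gabpa, the DNA-binding subunit of an ETS factor, had 19.7, 19.1 and 17.0 FPKM in KO and 17.2, 18.2 and 15.9 FPKM in WT. Both overlapped between groups. The groups did not overlap for 1 regulator higher in KO (14.5% of all genes) and for 0 lower (13.3% of all genes). That was Yy1, at 30.9, 29.1 and 29.2 FPKM in KO and 28.5, 28.2 and 28.2 FPKM in WT (log2 fold change 0.07, limma adjusted p = 0.79). At an unadjusted p under 0.05, 1 regulator, Pprc1, was higher (11.5% of all genes) and 0 were lower (10.2% of all genes).

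The 4 genes that did not pass the filter gave no comparison. Cox7b2 and Cox8c, isoforms typical of testis, and a further row named Atp5o (ENSMUSG00000116933) had 0 reads in every library, and Cox20b, annotated as a processed pseudogene, had 6 reads in KO replicate 1 and 0 elsewhere. Several of the tested genes share exonic bases with neighbours in GENCODE M21, so that their counts are uncertain. On the opposite strand these include Cox11 with Tom1l1, Cox20 with Hnrnpu, Atp5d with Cbarp, Atp5a1 with Haus1 and Atp5j with Gabpa. On the same strand, Cox16 overlaps Gm20498, Cox17 overlaps Gm21987, and the tested Atp5o row overlaps the row of the same name that had 0 reads.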

How the data were processed

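Gene expression was measured by RNA sequencing of 6 libraries, 3 KO and 3 WT. The authors deposited 1 FPKM value per gene and sample with gene length; the submitters' processing notes name mm10, DESeq2, featureCounts 1.5.0-p3, HISAT2 2.0.5 and Trim Galore, with no role stated, and the libraries were stranded per the labels' protocols. Not given in the sources used here are the strand setting, the treatment of multiply matching reads and the annotation. FPKM times length fell on whole multiples of 1 step (tolerance 0.05) for 99.988% or more of the values in each library; reads rebuilt from these totalled 16462539 to 16819913 in KO and 14932604 to 16453314 in WT.

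Values were analysed as log2(FPKM + 0.5), a scale that understates changes of low genes, with limma 3.58.1 in R 4.3.3 (lmFit, eBayes with trend, 2-sided, genotype only), where FPKM averaged at least 0.5. Genes with an adjusted p under 0.05 were called. Identifiers were matched to GENCODE M21 (54495 matched, 37 not), which gave coordinates counted from 1. The genes and lists were chosen with earlier results of these data known. The text names Ptpmt1; in each class the gene of highest FPKM and the 2 of smallest p; genes with separate groups; the largest and smallest fold; paralogs; and genes under the filter. Others, shown to cover every member of the set, were picked with their values in view. The fit was tested on simulated data. Alternatives covered pseudocount, filter, scaling, variance model, weights, replicate block, limma-voom and each sample left out. Tables and plots came from pandas 2.3.3, scipy 1.17.1 and matplotlib 3.10.9 in Python 3.11.15.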

Additional observations from a re-analysis of the deposited data

How the results depend on the processing

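The median log2 fold change of the 48 genes stayed above 0 under every alternative run, at 0.14 (equal FPKM totals) to 0.61 (array weights, or without KO replicate 3). Of all genes, 5 were called; the count was 3 with a pseudocount of 1 or with no filter, 14 with no mean-variance trend, 1 by limma-voom, 6710 with array weights, and 2 to 1852 with each sample left out, the highest without KO replicate 3. Of the 48 genes, 0 were called, 40 with array weights, which gave KO replicate 1 a weight of 9.10 and KO replicates 2 and 3 weights of 0.355 and 0.192, and 0 to 16 with a sample left out. At an unadjusted p under 0.05, 6 genes were higher, 3 with equal FPKM totals, 42 with array weights and 3 to 31 with a sample left out. Lower were 0, against 1 with equal FPKM totals, equal read totals or no trend, 2 with array weights and 0 to 2 with a sample left out. Groups did not overlap for 8 genes higher in KO, 4 with equal FPKM totals, 5 with equal read totals (a scaling chosen after seeing the data) and 8 to 37 with a sample left out; for genes lower the counts were 0, 2, 1 and 0 to 2. Class medians moved for complex II (0.25) to -0.017 and 0.10, for complex IV assembly (0.32) to 0.11 and 0.18, at equal FPKM and equal read totals, and to 0.43 with array weights or limma-voom, and for F1 (0.25) to -0.026 at equal FPKM totals. With a sample left out they ranged from 0.18 to 0.38, 0.27 to 0.34 and 0.19 to 0.32. Complex III (0.21 to 0.96), complex IV subunits (0.06 to 0.49), Fo and stalk (0.05 to 0.86), Atp5s (0.30 to 0.75) and Cycs (0.99 to 1.59) moved with a sample left out, and so did the median of the 48 genes (0.19 to 0.61). With equal FPKM totals the medians were 0.37 for complex III, 0.12 for complex IV subunits, 0.16 for Fo and stalk, 0.23 for Atp5s and 0.99 for Cycs. The assembly factors and related genes, taken with the regulators, had 0 calls, 26 with array weights and 0 to 7 with a sample left out. Ptpmt1 had a log2 fold change of -1.26, -1.50 with array weights and -1.34 to -1.11 with a sample left out. All genes that changed sign under a scaling or without 1 library are named in the results above. Among the genes named by the rule, reversed directions came from equal FPKM totals for Cox5b (-0.10), Cox6b1 (-0.14) and Atp5d (-0.026), from equal read totals for Cox6b1 (-0.017), and from leaving out KO replicate 1 (Cox6b1, -0.030) or KO replicate 2 (Cox6b1, -0.059; Atp5g2, -0.030). With a sample left out, Cox6b1 reached at most 0.48 and Atp5g2 0.85. Whether replicate numbers pair the samples was not settled. Same-numbered KO and WT deviations correlated at 0.13, 0.067 and 0.33. KO replicates 1 and 3 correlated best with the WT library of the same number, and KO replicate 2 with WT replicate 1 (0.267). Deviations from a mean of 3 samples are tied to each other, so these values cannot decide the question. A replicate block gave 12 calls over all genes, 0 of them among the 48. The cause of these changes was not tested. Depth limits genes that rest on few reads, such as Cox20, Cox6c2 and Cox6b2.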
